A study of Mus musculus with 12 samples.

Results

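The genes described here are 10 transport and kinase genes of the thick ascending limb and the distal tubule, chosen by name from a list: Slc12a1, Umod, Slc12a3, Pvalb, Trpm6, Wnk1, Stk39, Trpv5, Calb1 and Slc8a1. All 10 were found by symbol among the 11614 genes of the deposited files. RNA of kidney cortex from C57BL/6J mice was sequenced in 12 libraries, with 3 in each of 4 groups. NASH mice received CCl4, carbon tetrachloride, together with a diet that the labels call WD, the usual short form of Western diet, for 12 or 24 weeks. Control mice received a normal diet and corn oil for 12 or 24 weeks. NASH stands for non-alcoholic steatohepatitis, in which fat and inflammation build up in the liver. Diet and CCl4 always come together in these groups, so their effects cannot be told apart. The labels give 6 mice (3 male and 3 female) for NASH and 6 for control at 12 weeks, and 10 for NASH and 8 for control at 24 weeks, males and females in equal number. They state neither the sex behind a library nor whether a library is 1 mouse or a pool, so the p-values below measure only the spread between these samples.

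The thick ascending limb takes up sodium, potassium and chloride through the cotransporter NKCC2, encoded by Slc12a1, and secretes uromodulin, encoded by Umod, into the urine. The distal convoluted tubule that follows takes up sodium chloride through NCC, encoded by Slc12a3, which is switched on by the WNK kinases through SPAK, the product of Stk39. In the late convoluted and connecting tubule calcium enters cells through the channel TRPV5, is carried by calbindin-D28k, encoded by Calb1, and leaves through the sodium-calcium exchanger NCX1, encoded by Slc8a1. TRPM6 is the apical magnesium channel of the distal convoluted tubule, and parvalbumin, encoded by Pvalb, is a calcium-binding protein that marks its early stretch in mice.

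The values are the deposited log2 values, which in 1-transcript genes are nearly all whole reads times 1 factor per library. Umod, Slc12a3, Slc12a1, Slc8a1 and Pvalb, with 2 or 4 transcripts each, gave whole reads in 1 to 6 of the 12 libraries. Depth estimated from the steps of the values was 7170000 to 12400000 reads in NASH and 12700000 to 13700000 in control libraries at 12 weeks, and 8280000 to 12300000 in NASH and 10100000 to 14100000 in control libraries at 24 weeks. After scaling the totals lay between 13600000 and 14100000. Replicate 1 stood apart from replicates 2 and 3 in every group, also in Xist, the RNA of the inactive X chromosome, at log2 10.6 to 11.5 in replicate 1 against 2.97 to 4.86 in replicates 2 and 3, and in the Y-linked Ddx3y, at 2.48 to 4.25 in replicate 1 against 8.95 to 9.62 in replicates 2 and 3. In these genes replicate 1 has the pattern of female RNA and replicates 2 and 3 that of male RNA, in every group. Fits to replicates 2 and 3 alone thus use libraries of the male pattern only. Because replicate 1 stands apart, results are given with and without a term for the replicate number, below called the replicate block. The tissue is labelled as cortex, and 12 proximal tubule markers summed to log2 17.9 to 18.2 in each of the 12 libraries, and none of them was at or below 3 scaled reads in any library. The sum hides differences of single markers. Between replicate 1 and replicates 2 and 3 these ran from -10.2 (log2) for Slc7a13 to 1.64 for Gatm, with the block.

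By the median per kilobase of gene model, Umod was the most abundant of the 10 genes and Slc8a1 the least. The median over the 12 libraries was 8301 scaled reads per kilobase for Umod, 2182 for Slc12a3, 1316 for Calb1 and 724 for Slc12a1. It was 508 for Wnk1, 398 for Pvalb, 116 for Stk39, 78.7 for Trpv5, 53.7 for Trpm6 and 35.2 for Slc8a1. On the log2 scale, the distance to the next gene exceeded the larger SD over libraries for 2 neighbours in this order, at 2.64 SD between Umod and Slc12a3 and 2.48 SD between Pvalb and Stk39. The other neighbours lay closer than the larger SD, which includes the difference between replicate numbers. Within libraries Slc12a3 was above Calb1 in 12 of 12. The remaining neighbours kept this order in 8 (Slc12a1 above Wnk1) to 10 (Calb1 above Slc12a1) of 12 libraries, and Trpm6 was above Slc8a1 in 9. Reads for the short kidney form of Wnk1, which lacks the kinase domain, are not separated from the long form in a value per gene.

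**Figure D1:**
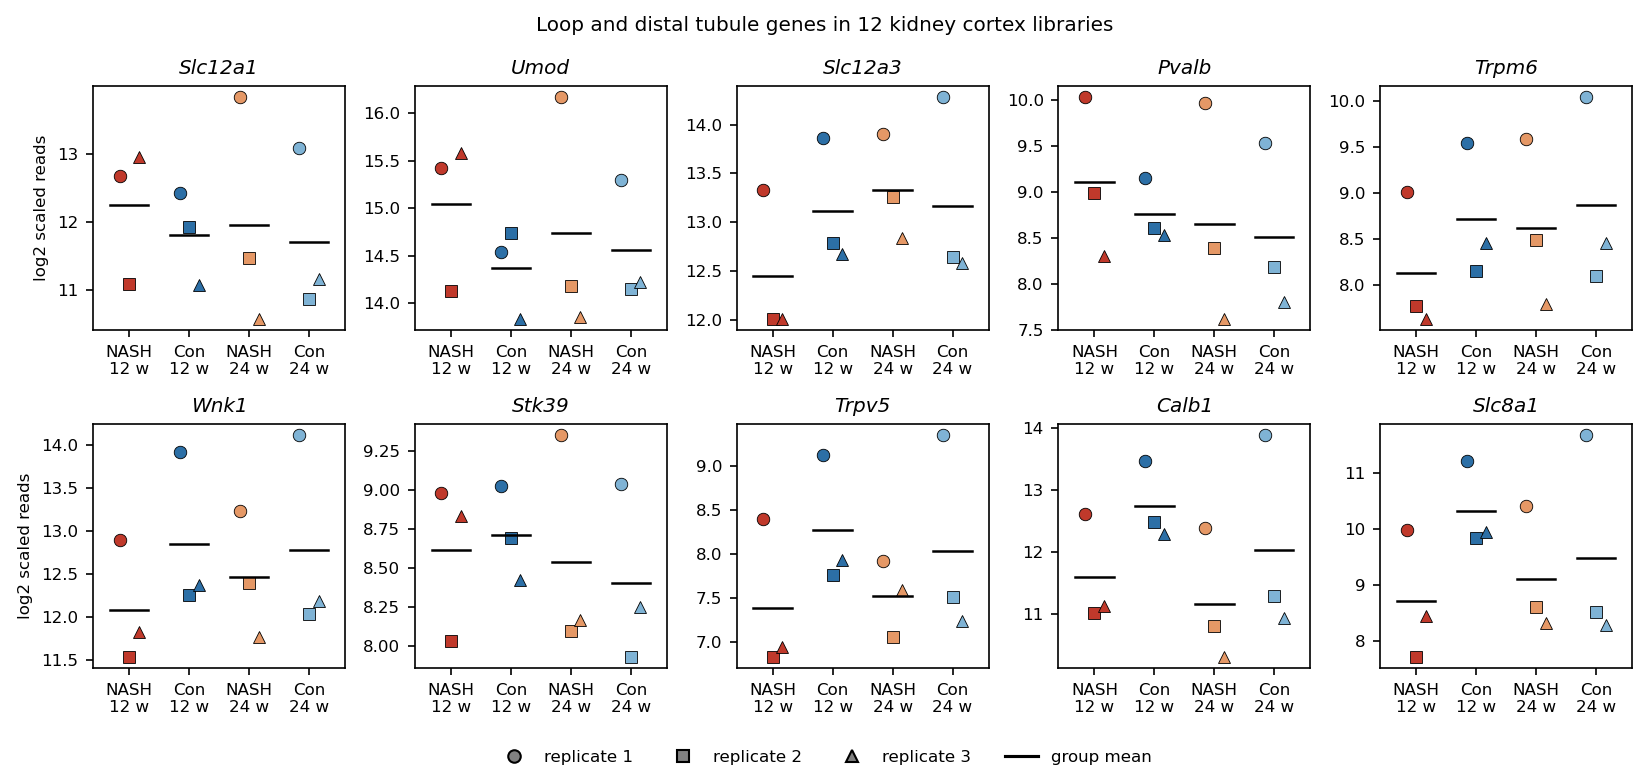
The plot of member values shows the deposited log2 value (log2 scaled reads, y axis, with a scale of its own in each panel) of the 10 genes in each of 12 libraries, by group, with NASH to the left of control at each time; the marker shape gives the replicate number and the line the group mean. Replicate 1 is the highest library of its group in all 4 groups for 8 of the genes, and in every panel the NASH and control libraries of the same time overlap. The shares of all genes with these patterns are not plotted.

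At 12 weeks the 3 calcium transport genes, Slc12a3 and Wnk1 were lower in NASH than in control cortex, by 1.58-fold (Slc12a3) to 3.07-fold (Slc8a1), in the fit with the replicate block, and Slc12a1, Umod, Pvalb, Trpm6 and Stk39 did not pass the test. Without the block no gene of the 10 passed. In bulk cortex, fewer cells of a type and less RNA per cell cannot be told apart. In the fit without the block limma called 0 of the 10 genes at an adjusted p under 0.05, and 0 had an unadjusted p under that value, where 0.0517% of all genes were called. With the block limma called 5 of the 10, all lower, and 6 had an unadjusted p under 0.05. The share of all genes called lower in that fit was 9.85%, and 12.9% were called in either direction. The median change of the 10 genes was -0.62 (log2), against -0.080 for all genes.

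Slc8a1 had the largest change. Its log2 values at 12 weeks were 9.98, 7.72 and 8.45 in NASH replicates 1, 2 and 3, against 11.22, 9.84 and 9.95 in control replicates 1, 2 and 3. NASH replicate 1 lies above control replicates 2 and 3, so the groups overlap, but each NASH library is below the control library of the same number, with differences (NASH minus control) of -1.24, -2.12 and -1.496. The group means were 8.72 ± 1.15 in NASH and 10.33 ± 0.77 in control (SD, n = 3 each). The log2 change was -1.62 with an SE of 0.34 with the block (limma adjusted p = 0.017) and an SE of 0.91 without it (limma adjusted p = 0.43).

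Calb1, the cytosolic calcium carrier, was also lower in NASH in each pair. Its values were 12.62, 11.02 and 11.14 in NASH, against 13.48, 12.48 and 12.30 in control libraries. The pairwise distances were -0.85, -1.46 and -1.15, with overlap again only through NASH replicate 1. The log2 change was -1.15 with an SE of 0.27 with the block (limma adjusted p = 0.026) and 0.78 without it (limma adjusted p = 0.50), which is 2.23-fold lower in NASH.

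Trpv5, the apical calcium channel, rested on the fewest reads of the 10 genes. NASH libraries held an estimated 303, 58 and 72 reads of it and control libraries 522, 214 and 231. On the log2 scale these are 8.40, 6.83 and 6.94 in NASH, against 9.13, 7.76 and 7.93 in control libraries, so 2 of the 3 NASH libraries lie below every control library. Trpv5 was 1.85-fold lower in NASH, with a log2 change of -0.89 and an SE of 0.25 with the block (limma adjusted p = 0.044) and 0.60 without it (limma adjusted p = 0.50). In pair 1 the differences were -0.73 for Trpv5, -0.85 for Calb1 and -1.24 for Slc8a1. The NASH libraries of replicates 2 and 3 were the shallowest of the 12, at 7170000 and 8230000 reads, and the part of depth in these changes was not tested.

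Of the salt transport genes of the distal convoluted tubule, Slc12a3 was the one that passed. It measured 13.33, 12.01 and 12.01 in NASH, against 13.87, 12.79 and 12.68 in control libraries, and the pairs differed by -0.54, -0.78 and -0.67. These distances are the most even of the 5 called genes, and its SE was the smallest, 0.15 with the block (log2 change -0.66, limma adjusted p = 0.024) against 0.53 without it (limma adjusted p = 0.58). Trpm6 was lower in all 3 pairs too, with differences of -0.54, -0.38 and -0.82, at 9.002, 7.76 and 7.62 in NASH, against 9.54, 8.14 and 8.45 in control libraries. Its change of -0.58 did not pass (SE 0.19 with the block, limma adjusted p = 0.072). Pvalb, from the same segment, had 10.04, 8.99 and 8.31 in NASH, against 9.15, 8.61 and 8.54 in control libraries, a change of 0.34 that did not pass (SE 0.24 with the block, limma adjusted p = 0.37).

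Of the kinases of the WNK-SPAK cascade 1 passed, and the difference between them was not tested. Wnk1, the upstream kinase, measured 12.90, 11.53 and 11.82 in NASH, against 13.92, 12.25 and 12.37 in control libraries, and was 1.70-fold lower in NASH (log2 change -0.76, SE 0.20, limma adjusted p = 0.037 with the block; SE 0.64, limma adjusted p = 0.60 without it). Stk39, whose product SPAK phosphorylates both cotransporters, measured 8.98, 8.03 and 8.83 in NASH, against 9.02, 8.69 and 8.42 in control libraries. Its change of -0.10 did not pass, with an SE of 0.21 with the block (limma adjusted p = 0.79).

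In the 2 thick ascending limb genes the pairs went both ways. Slc12a1 measured 12.68, 11.10 and 12.95 in NASH, against 12.42, 11.92 and 11.09 in control libraries, so that NASH was above control in pairs 1 and 3 and below it in pair 2. Umod did the same, at 15.43, 14.13 and 15.58 in NASH, against 14.53, 14.74 and 13.83 in control libraries. Neither the change of 0.43 in Slc12a1 (SE 0.53 with the block, limma adjusted p = 0.62) nor that of 0.68 in Umod (SE 0.43, limma adjusted p = 0.32) passed. Without NASH replicate 3 the change of Slc12a1 was -0.36 with the block, so its direction rests on that library.

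**Figure D2:**
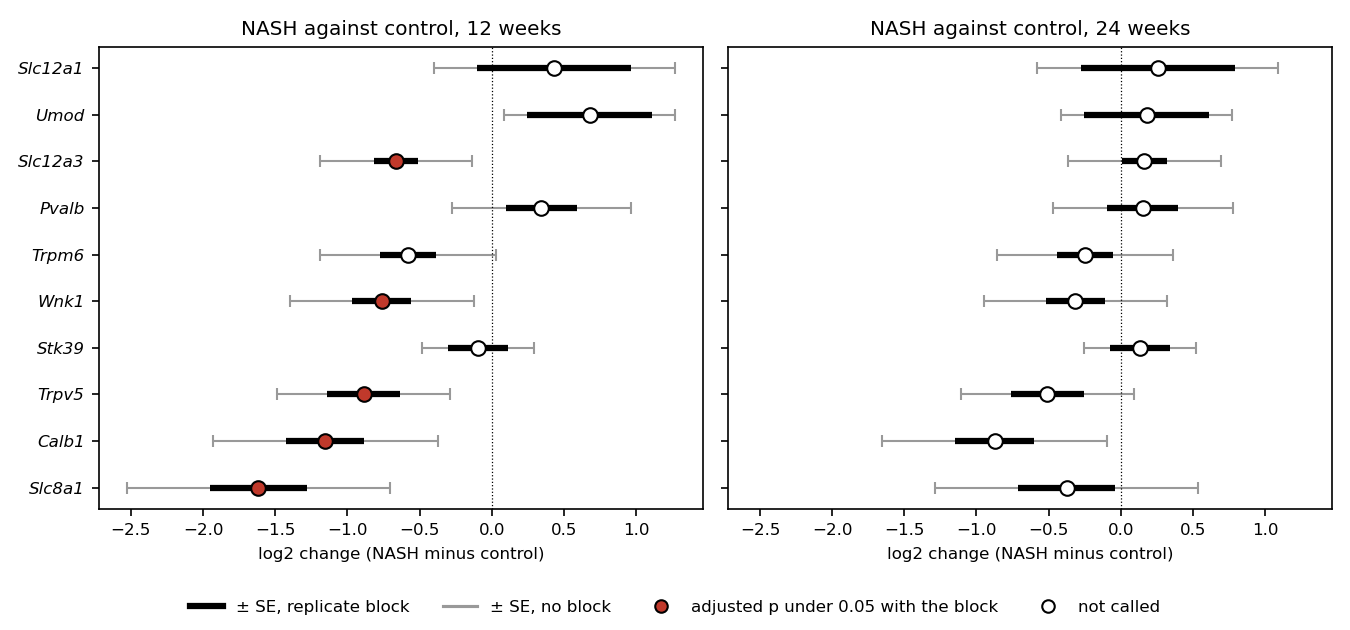
The plot of changes gives the log2 change (NASH minus control, x axis) of each gene at 12 and at 24 weeks, with a thick bar for ± SE with the replicate block and a thin bar for ± SE without it; filled points have an adjusted p under 0.05 with the block. At 12 weeks the filled points run from -0.66 for Slc12a3 to -1.62 for Slc8a1, and at 24 weeks no point is filled.

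All 5 block calls at 12 weeks depended on single libraries, and some on the scaling or correction. Leaving out control replicate 2 or 3 or NASH replicate 1 or 2 at 12 weeks ended all 5 calls, with limma adjusted p of 0.0602 to 0.0743 for Slc8a1, 0.0785 to 0.104 for Calb1 and 0.0682 to 0.0911 for Slc12a3. Wnk1 had 0.0776 to 0.139 and Trpv5 0.102 to 0.134 in the same 4 fits. Calls among all genes fell as well in these fits, from 1494 to 410 without control replicate 2 and 253 without control replicate 3. They fell to 326 without NASH replicate 1 and 596 without NASH replicate 2. The call of Trpv5 also ended without control replicate 1, NASH replicate 3 or, at 24 weeks, replicate 2 of either group (limma adjusted p = 0.0609 to 0.101), and that of Wnk1 without control replicate 1 at 12 weeks or control replicate 3 at 24 weeks (limma adjusted p = 0.101 and 0.051). Wnk1 was not called in replicates 2 and 3 alone (limma adjusted p = 0.091). With GC content and length trends removed, Slc8a1 and Slc12a3 were called and Calb1, Trpv5 and Wnk1 were not (limma adjusted p = 0.075, 0.11 and 0.14), at changes of -1.03 for Calb1, -0.83 for Trpv5 and -0.48 for Wnk1. With the block at 12 weeks, limma called 350 of all genes higher and 1144 lower as deposited. Median-of-ratios scaling gave 686 higher and 693 lower, and after quantile normalization 532 genes were higher and 698 lower. Under each of these scalings 4 of the 10 genes were called lower, and Trpv5 was not (limma adjusted p = 0.063 and 0.079).

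NASH lay below control in all 3 same-numbered pairs at 12 weeks for 6 of the 10 genes, namely Slc12a3, Trpm6, Wnk1, Trpv5, Calb1 and Slc8a1. That pattern held for 33.0% of all genes. At 24 weeks it held for 1 of the 10, Calb1, against 14.4% of all genes.

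**Figure D3:**
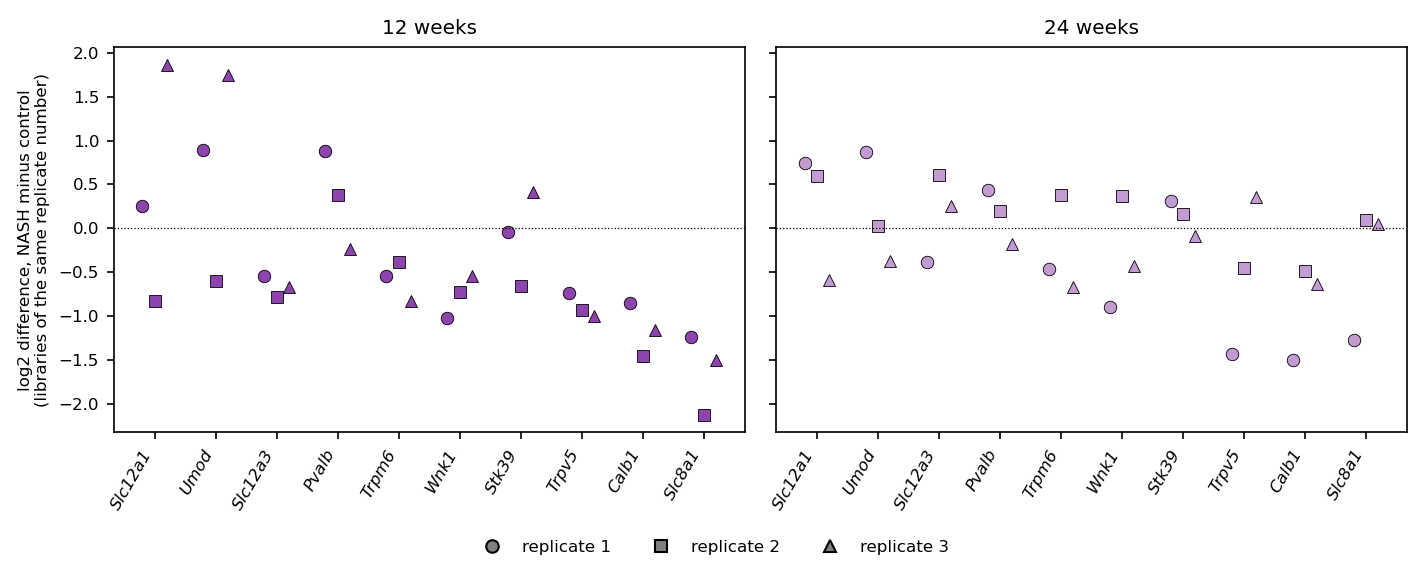
The plot of pairs shows the log2 difference (NASH minus control, y axis) between libraries of the same replicate number at 12 weeks and at 24 weeks, with 1 marker shape per replicate number. At 12 weeks all 3 markers lie below 0 for 6 genes, and for Slc12a1 and Umod they range from -0.82 to 1.87 and from -0.60 to 1.75.

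Promoters are shown for the genes called lower at 12 weeks that had a sequence, 4 of the 5. They are RefSeq sequences of build GRCm38.p6, from 250 bases before to 50 after the annotated start, read 5' to 3' on the strand of the gene; 9 of the 10 genes had one. Capitals mark TATAAA, the letters of a TATA box.
Slc12a3 (chr8:94328958-94329257, plus strand): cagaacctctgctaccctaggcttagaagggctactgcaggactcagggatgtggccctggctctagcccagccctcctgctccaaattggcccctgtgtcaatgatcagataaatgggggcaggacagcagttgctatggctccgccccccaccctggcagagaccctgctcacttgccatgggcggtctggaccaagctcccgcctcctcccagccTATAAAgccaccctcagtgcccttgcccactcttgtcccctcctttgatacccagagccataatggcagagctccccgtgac
Wnk1 (chr6:120038606-120038905, minus strand): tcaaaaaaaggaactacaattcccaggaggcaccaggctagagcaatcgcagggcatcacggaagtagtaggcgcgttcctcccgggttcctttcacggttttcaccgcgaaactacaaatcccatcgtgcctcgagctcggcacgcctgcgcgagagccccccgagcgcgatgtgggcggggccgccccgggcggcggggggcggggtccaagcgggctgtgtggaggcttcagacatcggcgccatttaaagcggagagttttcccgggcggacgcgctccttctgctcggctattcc
Trpv5 (chr6:41680674-41680973, minus strand): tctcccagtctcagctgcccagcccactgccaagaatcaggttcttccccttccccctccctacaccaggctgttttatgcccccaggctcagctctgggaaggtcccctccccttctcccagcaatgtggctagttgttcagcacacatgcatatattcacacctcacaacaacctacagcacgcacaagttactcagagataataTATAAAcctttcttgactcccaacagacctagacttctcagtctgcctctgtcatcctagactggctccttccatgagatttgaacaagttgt
Slc8a1 (chr17:81738338-81738637, minus strand): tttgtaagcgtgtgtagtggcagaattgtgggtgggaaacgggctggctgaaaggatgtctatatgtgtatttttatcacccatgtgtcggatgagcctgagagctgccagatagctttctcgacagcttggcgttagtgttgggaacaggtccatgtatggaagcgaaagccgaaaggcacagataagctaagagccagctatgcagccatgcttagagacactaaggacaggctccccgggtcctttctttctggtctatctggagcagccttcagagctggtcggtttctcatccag
TATAAA begins 32 bases before the start of Slc12a3 and 43 bases before that of Trpv5, and was found on neither strand of the Wnk1 and Slc8a1 windows. It is present on 1 of the strands in 13.6% of 32851 mouse promoters of this length. The letters CACGTG (an E-box), AGGTCA and AGAACA (core letters of nuclear and steroid receptor sites) and GTTAAT (one arm of an HNF1 site) were searched on both strands as well and were in none of the 4 windows. Their shares among all promoters are 7.15%, 16.3%, 19.0% and 7.1%. The Wnk1 window holds 32 CpG dinucleotides, against 9 in Slc8a1, 4 in Slc12a3 and 1 in Trpv5.

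In the files' mm10 coordinates Slc8a1 lies on chr17:81373105-81738387 (minus strand), Calb1 on chr4:15881264-15906709 (plus), Trpv5 on chr6:41652770-41680723 (minus), Slc12a3 on chr8:94329208-94366221 (plus) and Wnk1 on chr6:119923969-120038655 (minus). Slc12a1 is on chr2:125152600-125230001 (plus), Umod on chr7:119462708-119479262 (minus), Pvalb on chr15:78191112-78206400 (minus), Trpm6 on chr19:18749983-18892511 (plus) and Stk39 on chr2:68210447-68471981 (minus).

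At 24 weeks none of the 10 genes passed the test. limma called 0 of them without the block, where 0% of all genes were called, and 0 with it, where 0.00861% were called. At an unadjusted p under 0.05 there were 0 without the block and 1, Calb1, with it. The median change of the 10 genes was -0.058, against 0.010 for all genes. Calb1 measured 12.39, 10.81 and 10.31 in NASH, against 13.89, 11.30 and 10.94 in control libraries, and its change was -0.87 (SE 0.27 with the block, limma adjusted p = 0.43). NASH was below control in each pair, with differences of -1.502, -0.49 and -0.63, and the groups overlap.

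Slc8a1 and Trpv5 differed mainly in replicate 1 at this time. Slc8a1 measured 10.41, 8.61 and 8.33 in NASH, against 11.68, 8.52 and 8.29 in control libraries, so NASH was lower in pair 1, at a difference of -1.27, and within 0.10 of control in the other pairs. Its change of -0.38 did not pass (SE 0.34 with the block, limma adjusted p = 0.74). Trpv5 measured 7.92, 7.05 and 7.59 in NASH, against 9.35, 7.51 and 7.23 in control libraries, a change of -0.51 (SE 0.25 with the block, limma adjusted p = 0.55). Wnk1 measured 13.23, 12.40 and 11.76 in NASH, against 14.12, 12.03 and 12.18 in control libraries, with NASH lower in pairs 1 and 3. Its change was -0.31 (SE 0.20 with the block, limma adjusted p = 0.64).

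Slc12a3, called lower at 12 weeks, had NASH above control in 2 of 3 pairs at 24 weeks. It measured 13.91, 13.26 and 12.84 in NASH, against 14.28, 12.65 and 12.58 in control libraries, a change of 0.16 (SE 0.15 with the block, limma adjusted p = 0.75). Trpm6 measured 9.58, 8.48 and 7.79 in NASH, against 10.04, 8.10 and 8.45 in control libraries, and Pvalb 9.97, 8.39 and 7.62 in NASH, against 9.53, 8.19 and 7.80 in control libraries. Both sets of libraries overlap, with changes of -0.25 for Trpm6 and 0.15 for Pvalb that did not pass.

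For Slc12a1 and Umod the highest library at 24 weeks was NASH replicate 1. Slc12a1 measured 13.83, 11.48 and 10.58 in NASH, against 13.08, 10.87 and 11.16 in control libraries, and Umod 16.17, 14.18 and 13.85 in NASH, against 15.30, 14.15 and 14.22 in control libraries. Changes of 0.26 and 0.18 did not pass. Stk39 measured 9.35, 8.10 and 8.16 in NASH, against 9.04, 7.93 and 8.25 in control libraries, a change of 0.13 that did not pass either.

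Averaged over both times, Calb1, Slc8a1, Trpv5 and Wnk1 were lower in NASH than in control with the block, by 2.02-fold, 1.997-fold, 1.62-fold and 1.45-fold. limma called these 4 with the block, against 7.36% of all genes called lower and 10.4% in either direction, and 0 without it, where 0% of all genes were called. At an unadjusted p under 0.05 there were 6 with the block and 0 without it. The average uses the same libraries as the 12-week comparison and is not independent of it. Calb1 had an average change of -1.01 (SE 0.19, limma adjusted p = 0.016 with the block) and was called in 11 of 12 fits with 1 library left out. Without control replicate 3 at 12 weeks its adjusted p in limma was 0.0512. Slc8a1 changed by -0.997 (limma adjusted p = 0.029), Trpv5 by -0.70 (limma adjusted p = 0.036) and Wnk1 by -0.54 (limma adjusted p = 0.041), all with the block. Slc8a1 was called in 6 of those 12 fits and not without control replicate 2 or 3 or NASH replicate 1 or 2 at 12 weeks, or NASH replicate 1 or 3 at 24 weeks (limma adjusted p = 0.062 to 0.0785). Trpv5 was called in 2 of them, without replicate 3 of NASH or of control at 24 weeks, and Wnk1 in 3, without NASH replicate 3 at 12 weeks or replicate 2 of NASH or of control at 24 weeks; in the other fits limma's adjusted p was 0.0585 to 0.0871 for Trpv5 and 0.0627 to 0.107 for Wnk1. Using replicates 2 and 3 alone, Calb1 and Slc8a1 were called, and with GC content and length trends removed Calb1 alone was.

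Whether the NASH effect differs between the times was tested directly, and no gene of the 10 passed. The effect at 24 weeks minus that at 12 weeks was 1.24 for Slc8a1 (SE 0.48 with the block, limma adjusted p = 0.32) and 0.83 for Slc12a3 (SE 0.22, limma adjusted p = 0.21). limma called 0 of the 10 with the block, where 0.00861% of all genes were called, and 2 had an unadjusted p under 0.05. Without the block 0 were called, and 0% of all genes. In replicates 2 and 3 alone both passed, at 1.88 for Slc8a1 (limma adjusted p = 0.043) and 1.16 for Slc12a3 (limma adjusted p = 0.023). In that fit 91 of 11614 genes were called.

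Control libraries of replicates 2 and 3 also differed between the times. Slc8a1 was at 8.52 and 8.29 in control replicates 2 and 3 at 24 weeks, against 9.84 and 9.95 in the same numbers at 12 weeks, whereas replicate 1 was at 11.68 at 24 weeks and 11.22 at 12 weeks. Calb1 was at 11.30 and 10.94 in control replicates 2 and 3 at 24 weeks, against 12.48 and 12.30 at 12 weeks, and replicate 1 at 13.89 at 24 weeks and 13.48 at 12 weeks. Over all libraries neither passed: the 24-week minus 12-week change in controls was -0.84 for Slc8a1 (limma adjusted p = 0.20 with the block) and -0.71 for Calb1 (limma adjusted p = 0.19). limma called 0 of the 10 genes in controls with the block, where 0.172% of all genes were called (2 at an unadjusted p under 0.05), and 0 without it, where 0% were. In replicates 2 and 3 alone the changes were -1.49 for Slc8a1 (limma adjusted p = 0.0096) and -1.27 for Calb1 (limma adjusted p = 0.0026), and leaving out control replicate 1 at 24 weeks likewise gave 2 calls. Among all 11614 genes 800 and 434 were called in these fits. Between NASH libraries the 24-week minus 12-week change was 0.89 for Slc12a3 (limma adjusted p = 0.080 with the block), and limma called 0 of the 10 genes with the block, where 0.0258% of all genes were called (2 at an unadjusted p under 0.05), and 0 without it, where 0% were. In replicates 2 and 3 alone Slc12a3 passed, at 1.04 (limma adjusted p = 0.0021), and leaving out NASH replicate 1 at 12 or at 24 weeks each gave 1 call. Among all genes 596, 170 and 141 were called in these fits, in that order. These comparisons share libraries with those above and are not independent of them.

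The 10 genes shared a difference between replicate numbers. In a comparison chosen after the values were seen, replicate 1 was higher than replicates 2 and 3 for all 10 genes, where 37.3% of all genes were called higher and 47.3% in either direction. The change ran from 0.79 (log2) in Stk39 to 2.11 in Slc8a1, a 4.32-fold difference, with limma adjusted p of at most 0.025 in the fit with the block. The median of all genes was shifted by 0.20 in that comparison as deposited. Under median-of-ratios scaling the 10 genes were again higher, by 0.60 to 1.92, and under quantile normalization by 0.57 to 1.98. Replicate 1 was the highest of its group in 4 of 4 groups for every gene except Slc12a1 (3 of 4) and Umod (2 of 4). The share of all genes with that pattern is not given here, so it cannot be called particular to the 10 genes. By Xist and Ddx3y replicate 1 has the female pattern and replicates 2 and 3 the male one. What else distinguishes replicate 1 is not given by the labels. The part of sex, dissection or library preparation was not tested, and within these libraries sex cannot be told apart from the replicate number.

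With the mean of each replicate number taken off, pairs of genes correlated to different degrees over the 12 libraries, given here as a description. Slc12a1 correlated with Umod at Pearson's r = 0.93 and with Stk39 at 0.86. Calb1 correlated with Slc8a1 at 0.90 and with Trpv5 at 0.75, Wnk1 with Trpm6 at 0.85 and with Slc8a1 at 0.80, and Slc12a3 with Trpm6 at 0.78. Slc12a3 stood at 0.17 with Calb1, and Stk39 at 0.38 with it. Umod and Trpv5 were at -0.57, and Pvalb and Slc12a3, markers of the same segment, at -0.54. By Spearman's rho on the same values these pairs stood at -0.44 and -0.25. Before the means were taken off, Pearson's r was 0.29 and 0.61, so these negative values depend on the measure. The libraries share the factor and depth differences named above. By the same measure the genes most like Slc8a1 were E2f6 (r = 0.97), Luzp1 (0.96) and Atp2b4 (0.95), and those most like Calb1 were Ulk2, Birc6 and Slc26a2 (0.95 each). Those most like Umod were Ephb2 and Ddx43 (0.99 each) and Tgfa (0.96), and those most like Slc12a1 were Egfl6 (0.97), Tpm1 (0.96) and Ppp1r1b (0.96).

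**Figure D4:**
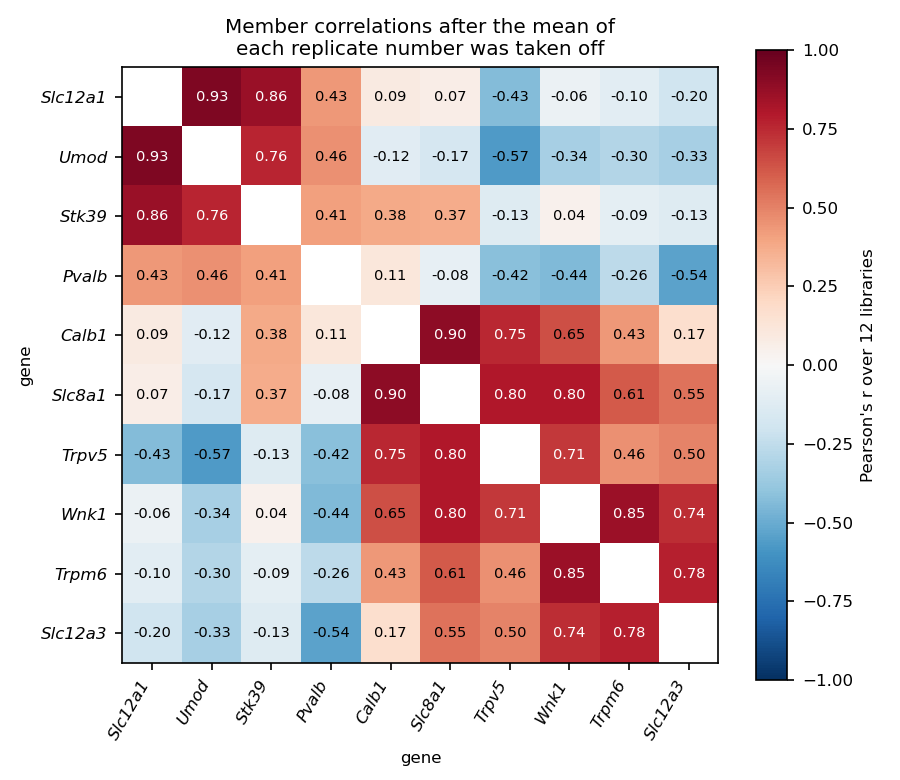
The plot of correlations gives Pearson's r between each pair of genes (both axes) over 12 libraries after the mean of each replicate number was taken off, from -1 (blue) to 1 (red). Slc12a1, Umod and Stk39 form a red block of 0.76 to 0.93, and Umod with Trpv5 (-0.57) and Pvalb with Slc12a3 (-0.54) are the lowest cells.

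Of 53 other genes listed for the same segments, 50 were measured. At 12 weeks limma called 5 of the 50 with the block, 4 lower and 1 higher, against 12.9% of all genes, and 0 without it (3 at an unadjusted p under 0.05). Among 18 distal calcium and magnesium genes 3 were lower: Atp2b4 and Atp2b1, plasma membrane calcium pumps that share the basolateral exit with NCX1, and Trpm7, a magnesium-permeable channel related to TRPM6. Atp2b4 measured 8.95, 7.51 and 7.70 in NASH, against 9.66, 8.54 and 8.47 in control libraries, a change of -0.84 (limma adjusted p = 0.027 with the block). Atp2b1 changed by -0.49 (limma adjusted p = 0.019 with the block) and Trpm7 by -0.50 (limma adjusted p = 0.0498 with the block). The median over the 18 genes was -0.04, against -0.080 for all genes. The call of Atp2b4 ended without control replicate 2 or 3 or NASH replicate 1 or 2 at 12 weeks, that of Atp2b1 without those or control replicate 1, and that of Trpm7 held only without control replicate 1 or 2 or NASH replicate 2 at 24 weeks (largest limma adjusted p = 0.108 for Atp2b4, 0.0778 for Atp2b1 and 0.184 for Trpm7). With GC content and length trends removed none of these 3 was called. In replicates 2 and 3 alone Atp2b1 and Trpm7 were not called (limma adjusted p = 0.072 and 0.12), and Trpm7 missed the threshold with median-of-ratios scaling (limma adjusted p = 0.080) and after quantile normalization (limma adjusted p = 0.055).

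Among 16 genes of WNK-SPAK and distal convoluted tubule salt transport, Nr3c2, the mineralocorticoid receptor that binds aldosterone, was lower. It measured 7.58, 5.78 and 6.05 in NASH, against 8.26, 6.97 and 7.17 in control libraries, a change of -0.997 (SE 0.22, limma adjusted p = 0.020 with the block; adjusted p = 0.47 without it). The median of these 16 was -0.21. Among 16 thick ascending limb genes, Fxyd2, the gamma subunit of the sodium pump, was higher, at 14.70, 14.78 and 14.42 in NASH, against 13.83, 14.30 and 14.25 in control libraries. Its change of 0.50 passed with the block (limma adjusted p = 0.040) and became -0.04 once trends with GC content and length were removed. The median of these 16 was 0.23. The call of Nr3c2 ended without control replicate 2 or 3 or NASH replicate 1 or 2 at 12 weeks (limma adjusted p up to 0.0802), in replicates 2 and 3 alone (limma adjusted p = 0.070) and with GC content and length trends removed (limma adjusted p = 0.062). That of Fxyd2, among fits with 1 library left out, held only without NASH replicate 3 at 12 weeks or replicate 1 of NASH or of control at 24 weeks, and it ended after quantile normalization (limma adjusted p = 0.083) and in replicates 2 and 3 alone (limma adjusted p = 0.14).

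At 24 weeks limma called 0 of the 50 genes with or without the block, where 0.00861% of all genes were called with it and 0% without it. At an unadjusted p under 0.05 there were 3 with the block and 0 without it. Averaged over both times 5 of the 50 passed with the block, where 10.4% of all genes were called: Nr3c2 (-0.65), S100g (-0.53), Sorl1 (-0.47) and Atp2b1 (-0.30) were lower and Fxyd2 (0.35) higher, with limma adjusted p between 0.029 and 0.044. S100g, which encodes calbindin-D9k, measured 13.90, 12.80 and 12.53 in NASH, against 13.68, 13.46 and 13.25 in control libraries at 12 weeks, and 13.16, 12.96 and 12.27 in NASH, against 14.11, 13.35 and 12.96 in control libraries at 24 weeks. It was the only one of the 5 still called after GC content and length trends were removed, at -0.78. In replicates 2 and 3 alone Nr3c2, Sorl1, Atp2b1 and Fxyd2 were not called (limma adjusted p = 0.067 to 0.21). Atp2b1 was not called with median-of-ratios scaling (limma adjusted p = 0.058), and after quantile normalization neither Atp2b1 nor Fxyd2 was (limma adjusted p = 0.0501 and 0.079). Sorl1 encodes a sorting receptor known for the trafficking of NKCC2. None of the 5 was called without control replicate 2 or 3 or NASH replicate 2 at 12 weeks, or replicate 1 or 3 of either group at 24 weeks, with limma adjusted p of 0.0512 to 0.119.

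Markers of neighbouring cells are given as log2 of their summed scaled reads. For comparison, 59.6% of all genes had negative changes at 12 weeks and 47.9% at 24 weeks. With the block 9.85% of all genes were called lower at 12 weeks, and 350 of 11614 were called higher. The 8 intercalated cell markers held 12.2 to 13.5 in NASH and 12.7 to 13.4 in control libraries at 12 weeks, and 7 of the 8 had negative changes, with 1 called lower with the block. The 9 endothelial markers held 12.5 to 13.4 in NASH and 12.9 to 13.2 in control libraries at 12 weeks, with negative changes for 8 of 9 and none called by limma with the block (1 at an unadjusted p under 0.05). The 9 collecting duct principal cell markers held 13.2 to 14.04 in NASH and 13.0 to 13.4 in control libraries at 12 weeks, with 1 called higher with the block. The 7 erythroid markers held 10.9 to 12.9 in NASH and 10.6 to 10.97 in control libraries at 12 weeks, and all 7 changes were positive with none called by limma with the block (5 at an unadjusted p under 0.05). Hbb-bt and Hbb-b2 among them had the same change, 0.98, and SE, 0.28, between replicate 1 and replicates 2 and 3. The 7 are therefore not all separate signals, here and in the counts below. Podocyte and macrophage markers overlapped between NASH and control libraries at 12 weeks, at 12.7 to 14.03 against 13.0 to 13.9 and at 12.1 to 13.2 against 12.1 to 12.8. At 24 weeks the 9 macrophage markers held 12.94 to 13.5 in NASH and 11.7 to 12.88 in control libraries, so the sums did not overlap. Their median log2 values did overlap, at 8.55 and 8.61 in NASH replicates 1 and 3 against 8.84 in control replicate 1. Of single genes, 4.56% had all NASH libraries above all control libraries at 24 weeks. The 7 erythroid markers held 10.8 to 12.4 in NASH and 9.77 to 11.03 in control libraries at 24 weeks. All 9 macrophage changes, all 7 erythroid changes and all 8 podocyte changes were positive at 24 weeks, and limma called none of them with the block (1 macrophage, 6 erythroid and 3 podocyte markers at an unadjusted p under 0.05). Averaged over both times, where 4 of the 10 genes were called lower, limma called 5 of the 7 erythroid markers higher with the block and 0 without it (5 at an unadjusted p under 0.05). Of all 11614 genes it called 352 higher with the block and 0 without it. The 8 adipocyte markers held 9.84 to 11.4 in NASH and 8.70 to 10.5 in control libraries at 12 weeks, with 8 positive changes. At 24 weeks they held 9.23 to 10.8 in NASH and 10.9 to 14.2 in control libraries, so these sums did not overlap. All 8 adipocyte changes were negative at 24 weeks, with a median of -3.10. limma called 0 of the 8 with or without the block. At an unadjusted p under 0.05 there were 8 with the block and 7 without it, against 1124 and 347 of all 11614 genes. No marker outside the adipocyte list was at or below 3 scaled reads in any library, and the part of these cells in the changes of the 10 genes was not tested.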

How the data were processed

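Kidney cortex RNA was sequenced in 12 libraries, 3 per group. The submitters' processing notes name mouse build mm10, the aligner BWA and limma, without versions or roles. Per the file headers, the authors deposited normalized log2 values per gene. How the factor of each library was set is not given in the sources used here. In 1-transcript genes below 3000 steps, 99.96% to 100% of values were whole multiples of 1 step per library within 0.01, and the steps ran from 1.00 to 1.96. All 10 genes are in the files. Calb1, Stk39, Trpm6, Trpv5 and Wnk1 gave whole reads in 12 of 12 libraries, within 0.02 reads. Umod (1 of 12), Slc12a3 (2), Slc12a1 (4), Slc8a1 (4) and Pvalb (6), with 2 or 4 transcripts each, gave them in fewer, and their levels are less certain. Every gene reaches 100 scaled reads in at least 1 library, so the files were filtered by a rule that is not stated. Depth limits Trpv5 most.

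In R 4.3.3, limma 3.58.1 took the deposited log2 values of 11614 genes, with 4 group means, a mean-variance trend and 2-sided moderated tests, adjusted by Benjamini-Hochberg over all genes and called at an adjusted p under 0.05. The fit was repeated with the replicate number as a block. Whether numbers pair samples was judged by how libraries deviate together from their group mean: correlations of all 18 same-numbered pairs lay between 0.19 and 0.74, above 0.1. Pairs of replicate 2 with 3 did so too (0.19 to 0.64), so the pairing is largely that of replicate 1. What a number stands for is not stated.

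The 10 genes, the lists and the tests were chosen with earlier results of these data known. All 10 genes are named. Of the listed genes, those called with or without the block at 12 weeks, at 24 weeks or on average are named. For likeness the 3 genes with the highest r are taken, and for 6 of the 10 genes they are not reported here. Promoters of called genes were read from RefSeq. Alternatives were median-of-ratios scaling, quantile normalization, removal of trends with GC content and length (5 spline degrees of freedom each, with GC for 11528 genes), filters on low values, replicates 2 and 3 alone and leaving out each library. Without the block, the trend removal was added after seeing the data, as was the comparison of replicate 1 with replicates 2 and 3. The fits were run on simulated data with known changes, with outcomes not reported here. For the fit without the block the simulated libraries held no difference between replicate numbers, unlike these data. That run therefore does not show how the fit performs on these libraries. Python 3.11.15 with pandas 2.3.3, numpy 2.4.6 and matplotlib 3.10.9 gave the tables and plots.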

Additional observations from a re-analysis of the deposited data

How the results depend on the processing

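Without the replicate block, every alternative called 0 of the 10 genes in each comparison. With the block the number called at 12 weeks was 5 as deposited, 4 under median-of-ratios scaling, 4 under quantile normalization, 4 in replicates 2 and 3 alone and 2 with GC content and length trends removed. Of all genes 1494, 1379, 1230, 632 and 474 were called, out of 11614 and, after trend removal, 11528. On average over both times 4, 4, 4, 2 and 1 of the 10 were called under the same settings, against 1207, 1243, 1161, 185 and 334 of all genes. Replicates 2 and 3 alone gave 2 for the difference of the effects, 2 for 24 against 12 weeks in controls and 1 in NASH. Among all genes that fit called 91, 800 and 596. The listed genes called with the block numbered 5, 6, 4, 6 and 2 at 12 weeks and 5, 6, 4, 1 and 1 on average. Leaving out single libraries, with or without the block, gave 0 to 6 of the 10 genes at 12 weeks, 0 to 4 on average, 0 to 2 between times in controls and 0 to 1 in NASH, and 0 to 7 listed genes at 12 weeks and on average. For the 10 and the listed genes the replicate block changed no other call. Among the markers it added 1 collecting duct and 1 intercalated cell call at 12 weeks and on average, 5 erythroid calls on average and 1 adipocyte call between times in controls.

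Some changes turned their sign under other settings. The change of Stk39 at 12 weeks was 0.017 under quantile normalization with and without the block. Removal of GC content and length trends, with and without the block, gave -0.039 for Fxyd2 at 12 weeks, -0.0073 for Fxyd2 on average and -0.021 for Slc12a3 in controls at 24 against 12 weeks. Replicates 2 and 3 alone gave -0.17 for Umod and 0.071 for Slc8a1 at 24 weeks, -0.040 for Stk39 on average and -0.12 for Slc12a3 in controls between times. The ranges that follow, from fits with 1 library left out, take fits with and without the block together. Without the block, leaving out a library leaves the replicate numbers uneven between the groups compared. Leaving out 1 library at 12 weeks gave -0.36 to 1.01 for Slc12a1, -0.12 to 0.75 for Pvalb and -0.34 to 0.19 for Stk39. At 24 weeks it gave -0.68 to 0.95 for Slc12a1, -0.54 to 0.62 for Umod, -0.13 to 0.72 for Slc12a3, -0.50 to 0.67 for Pvalb, -0.73 to 0.34 for Trpm6, -0.70 to 0.35 for Wnk1, -0.27 to 0.45 for Stk39, -0.91 to 0.15 for Trpv5, -1.48 to 0.050 for Calb1 and -1.02 to 0.72 for Slc8a1. On average it gave -0.12 to 0.69 for Slc12a1, -0.47 to 0.028 for Slc12a3, -0.079 to 0.51 for Pvalb and -0.19 to 0.18 for Stk39. The difference of the effects for Calb1 ranged from -0.33 to 1.205. Between times it gave -0.50 to 0.44 for Slc12a3 in controls, and -1.04 to 0.085 for Calb1 and -0.24 to 1.03 for Slc8a1 in NASH. The cause of these shifts was not tested.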
